A study of Homo sapiens with 6 samples.

Results

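GC-rich peaks were peaks of plasminogen activator inhibitor-1 (PAI-1) whose 300 bp window around the midpoint held at least 55% G plus C in the GRCh37 assembly, on which hg19 is built. Of 380031 peaks in 4 lists, 9486 met this rule. The peaks came from chromatin immunoprecipitation followed by sequencing (ChIP-seq) of nuclear extracts with an antibody against endogenous PAI-1, in 2 biological replicates per cell line. The lines, RT112 and UM-UC-3, are both established from human bladder cancer and carry no further treatment in the labels. Each cell line also had 1 input library, for which no peak list was analysed here. Because each group is a single cell line, a difference between the groups is a difference between these 2 lines.

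PAI-1 is a secreted serine protease inhibitor that blocks the plasminogen activators uPA and tPA, and it is also found inside cells. GC-rich DNA in the human genome gathers at gene starts and in gene-dense bands. A CpG is a C followed by a G, which is scarce in most of the genome because methylated cytosine mutates readily, and CpG islands are the stretches, often at the promoters of widely expressed genes, where CpGs were kept. Alu elements, the most common short interspersed repeats, are also rich in G plus C and carry many CpGs.

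The GC-rich peaks with the highest scores in both replicates of a cell line lay at different genes in the 2 lines. Peak scores, taken to be −log10 p-values or q-values from the peak calling, were compared only within a library. The best-ranked GC-rich peak of RT112 lay within GAREM2, a gene for an adaptor of growth factor signalling, 1.83 kb from a start site, with scores of 46 and 40.1 in the replicates. It was followed by a peak 23.1 kb from ATXN10, the ataxin-10 gene, with 43.8 and 35.7, and by a peak in an intron of LMF1, a lipase maturation factor, with 35.4 and 35.8. Of all GC-rich peaks of RT112 only 5.27% and 5.96%, by replicate, overlapped a UM-UC-3 peak, and none of these 3 did. Their 300 bp windows are shown because they carried the strongest GC-rich signal of RT112, at chr2:26397641-26397940, chr22:46044166-46044465 and chr16:959241-959540 of GRCh37, on the plus strand, with each CpG in capitals.
GAREM2: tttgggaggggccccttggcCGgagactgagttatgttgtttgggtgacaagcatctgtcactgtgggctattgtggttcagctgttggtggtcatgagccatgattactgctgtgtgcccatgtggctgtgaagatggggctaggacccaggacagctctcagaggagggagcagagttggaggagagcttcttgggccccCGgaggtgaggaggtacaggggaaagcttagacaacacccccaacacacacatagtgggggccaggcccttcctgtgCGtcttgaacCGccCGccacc
near ATXN10: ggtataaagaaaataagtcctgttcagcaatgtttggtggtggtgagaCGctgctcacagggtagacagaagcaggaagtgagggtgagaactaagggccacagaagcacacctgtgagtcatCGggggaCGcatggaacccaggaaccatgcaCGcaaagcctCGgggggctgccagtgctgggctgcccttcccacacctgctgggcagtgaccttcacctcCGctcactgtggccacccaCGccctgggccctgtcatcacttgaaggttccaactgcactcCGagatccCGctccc
LMF1: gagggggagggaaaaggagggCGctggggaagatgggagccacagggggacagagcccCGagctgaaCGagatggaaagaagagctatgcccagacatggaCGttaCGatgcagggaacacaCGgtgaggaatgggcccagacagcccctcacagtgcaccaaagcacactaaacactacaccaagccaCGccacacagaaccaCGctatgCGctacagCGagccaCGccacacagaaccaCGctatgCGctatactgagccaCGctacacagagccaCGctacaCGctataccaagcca
The first window held 5 CpGs, the second 9 and the third 16, which gave ratios of observed to expected CpGs of 0.203, 0.345 and 0.62. In the LMF1 window 19.2% of the 10-base words occurred more than once, and in the other two none did. The next in rank were a peak 43 kb from SRC, a tyrosine kinase gene, with 37 and 35.2, and a peak 0.738 kb from a start site of TNK1, another tyrosine kinase gene, with 35.7 and 29.7.

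In UM-UC-3 the best-ranked GC-rich peak lay 2.08 kb beyond the end of GDF2, the gene of bone morphogenetic protein 9, with scores of 41.2 and 45.5. The next lay 2.24 kb from a start site of SCARB1, the receptor for high-density lipoprotein, with 42.2 and 44.8, and the third in an intron of STK11, the tumour suppressor kinase LKB1, with 31.2 and 38.4. Of all GC-rich peaks of UM-UC-3 only 7.02% and 6.52%, by replicate, overlapped a peak of either RT112 replicate, and none of these 3 did. The windows at chr10:48409391-48409690, chr12:125285134-125285433 and chr19:1181471-1181770, on the plus strand, are shown as the strongest GC-rich signal of UM-UC-3.
near GDF2: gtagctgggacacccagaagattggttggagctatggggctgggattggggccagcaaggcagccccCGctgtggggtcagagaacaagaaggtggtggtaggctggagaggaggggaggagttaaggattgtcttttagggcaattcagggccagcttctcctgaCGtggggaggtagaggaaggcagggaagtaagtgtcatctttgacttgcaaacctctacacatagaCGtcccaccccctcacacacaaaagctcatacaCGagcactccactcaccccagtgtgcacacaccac
SCARB1: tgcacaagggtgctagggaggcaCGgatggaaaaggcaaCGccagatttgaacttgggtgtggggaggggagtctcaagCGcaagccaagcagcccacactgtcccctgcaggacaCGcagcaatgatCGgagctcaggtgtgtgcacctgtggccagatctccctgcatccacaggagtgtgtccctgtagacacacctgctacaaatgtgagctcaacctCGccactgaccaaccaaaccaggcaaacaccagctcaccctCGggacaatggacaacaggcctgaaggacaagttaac
STK11: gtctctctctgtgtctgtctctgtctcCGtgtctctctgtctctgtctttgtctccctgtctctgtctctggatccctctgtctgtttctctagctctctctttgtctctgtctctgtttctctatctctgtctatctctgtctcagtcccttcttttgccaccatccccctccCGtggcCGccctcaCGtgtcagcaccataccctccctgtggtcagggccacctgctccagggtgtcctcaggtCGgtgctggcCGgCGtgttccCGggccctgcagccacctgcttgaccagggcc
They held 4, 7 and 8 CpGs, with observed over expected values of 0.173, 0.287 and 0.337. In the STK11 window 14.4% of the 10-base words were repeated, against none in the windows of GDF2 and SCARB1. The next in rank lay 0.331 kb from the start site of CD300LD, an immune receptor gene, with scores of 24.3 and 30.5, and 391 kb from GLRX3, a glutaredoxin gene, with 23.8 and 29.5.

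Among 6853 merged GC-rich loci, 14 had a GC-rich peak in all 4 libraries. The best-ranked of them lay in an intron of NPIPB5, a gene of the duplicated nuclear pore interacting protein family, with scores of 14.7 and 13.5 in RT112 and, in UM-UC-3, of 10.8 and 17.3. The second lay 20.2 kb from BLCAP, the gene of bladder cancer-associated protein, with 14.6, 13.9, 7.72 and 12.3. The third lay 23 kb from YTHDF1, which reads methylated adenosine in RNA, with 10.9, 10.4, 7.4 and 7.33. Scores at these named loci were lower than those of the leading peaks of either line. Those leading peaks were picked by score from much longer lists, so this cannot show that shared loci score low. In the highest of 10 equal score classes, 9.13% and 8.16% of RT112 members had a peak of the other line, by replicate. The lowest class had 5.41% and 5.92%. For UM-UC-3 members the shares were 11.2% and 9.89% against 4.8% and 4.96%. Between these classes the shares of members did not rise evenly. Other peaks also had a higher share in the highest class. Those of RT112 had 5.81% and 5.72% in the lowest class but 13.5% and 14.7% in the highest. For UM-UC-3 the other peaks had 4.22% and 3.88%, then 11.2% in each replicate. A higher share at high scores was therefore not particular to GC-rich peaks. The windows, at chr16:22530740-22531039, chr20:36100421-36100720 and chr20:61803373-61803672 on the plus strand, are shown because they were GC-rich peaks of both lines.
NPIPB5: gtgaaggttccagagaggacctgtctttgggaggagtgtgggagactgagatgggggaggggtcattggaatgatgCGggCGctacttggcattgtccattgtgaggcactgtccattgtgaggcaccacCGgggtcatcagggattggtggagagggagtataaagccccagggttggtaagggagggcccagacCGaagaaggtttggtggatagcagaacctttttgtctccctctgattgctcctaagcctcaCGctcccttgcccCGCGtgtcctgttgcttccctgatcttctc
near BLCAP: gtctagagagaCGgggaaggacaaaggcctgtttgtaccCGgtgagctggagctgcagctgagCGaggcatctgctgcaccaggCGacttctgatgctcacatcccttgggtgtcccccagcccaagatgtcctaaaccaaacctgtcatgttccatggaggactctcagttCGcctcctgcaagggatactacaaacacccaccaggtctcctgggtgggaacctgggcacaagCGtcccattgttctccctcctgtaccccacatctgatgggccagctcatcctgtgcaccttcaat
near YTHDF1: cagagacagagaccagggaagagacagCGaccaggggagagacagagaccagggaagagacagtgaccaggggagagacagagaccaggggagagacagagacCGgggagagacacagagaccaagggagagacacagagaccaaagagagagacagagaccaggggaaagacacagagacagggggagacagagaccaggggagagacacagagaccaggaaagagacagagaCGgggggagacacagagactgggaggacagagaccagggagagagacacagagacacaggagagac
They held 7, 6 and 3 CpGs. The window near YTHDF1 was a short tandem pattern, in which 56% of the 10-base words occurred more than once. The other two loci named by rank lay at chr16:51807017-51807366, 126 kb from HNRNPA1L3, and at chr5:2289138-2289408, 402 kb from the homeobox gene IRX4. Of the 14 loci, 21.4% had a window in which at least 25% of the 10-base words were repeated, against 2.57% of all GC-rich loci. None had a start site of a protein-coding gene within 1 kb, against 6.98% of all GC-rich loci. With 14 loci such shares are coarse, and they were not tested.

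GC-rich peaks were a small part of each list. They numbered 2618 of 96423 in RT112 replicate 1, 1696 of 60227 in RT112 replicate 2, 2535 of 109287 in UM-UC-3 replicate 1 and 2637 of 114094 in UM-UC-3 replicate 2. The shares were 2.72% (95% Wilson interval 2.61 to 2.82) and 2.82% (2.69 to 2.95) in RT112, and 2.32% (2.23 to 2.41) and 2.31% (2.23 to 2.4) in UM-UC-3. Wilson intervals, here and below, cover counting error only. The genome served as background: of 9528558 non-overlapping 300 bp tiles without unknown bases, 619333 (6.5%) were GC-rich. Each library thus held GC-rich peaks at 0.356 to 0.433 of the genome share. The mean share was 2.77% ± 0.0713 (SD, n = 2) in RT112 and 2.32% ± 0.00589 in UM-UC-3, a difference of -0.45 percentage points. This was larger than the spread of the replicates, and both UM-UC-3 libraries lay below both RT112 libraries. It was -0.162 (exact permutation p = 0.667) when G plus C was taken over the whole peak, where the libraries of the lines overlapped, and 0.0725 at a limit of 60%. The exact two-sided permutation test over the 4 libraries gave p = 0.333, the smallest value that 2 libraries against 2 can give, and 0.375 after Benjamini-Hochberg adjustment over 9 differences. This test could therefore not pass a threshold of 0.05 for any difference between the cell lines. Counts themselves differed more within RT112 (2157 ± 652) than between the lines (UM-UC-3, 2586 ± 72.1; exact permutation p = 0.667).

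Inside the GC-rich range, peak density was lower the higher the G plus C content. Density was expressed as peaks per 10000 genome tiles of the same G plus C class. It was highest at 45 to 50% in all 4 libraries, with 144 and 98.1 in RT112 compared with 132 and 138 in UM-UC-3. At 55 to 60% it was 68.8, 44.8, 63.9 and 66.4, in the order RT112 replicates 1 and 2 and UM-UC-3 replicates 1 and 2. At 60 to 65% it was 8.97, 5.24, 13.8 and 14.7, and at 65 to 70% it was 0.797, 0.319, 3.35 and 2.87. UM-UC-3 exceeded RT112 in both of these upper classes, in every pair of libraries. No library had a peak with a window of 70% or more G plus C, against 39022 such tiles, and a count of 0 allows up to 0.769 peaks per 10000 of these tiles. Members therefore crowded near the limit, with a median of 56.3% G plus C in each library against 58.7% in GC-rich tiles, and the highest member had 68%.

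**Figure D1:**
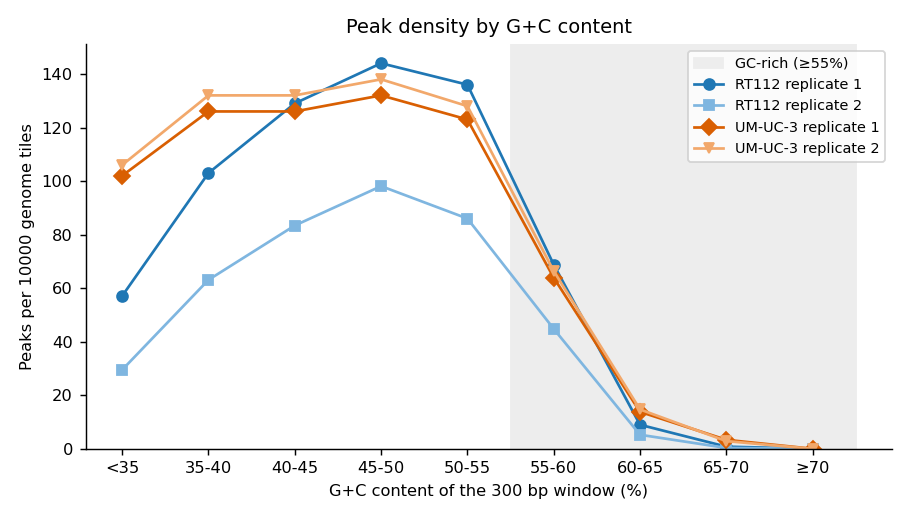
Peaks per 10000 genome tiles (vertical axis) in classes of G plus C content of the 300 bp window (horizontal axis, percent), one line per ChIP library, with the GC-rich range shaded. All 4 lines peak at 45 to 50% and drop to between 44.8 and 68.8 at 55 to 60%, and to 0 from 70%.

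The edge of the rule cut through a continuous range. Windows with 165 or 166 G and C bases, just inside it, were 731, 504, 686 and 651 peaks, and windows with 163 or 164, just outside, were 999, 591, 828 and 872. Median scores just inside were 3.87, 4.09, 4.25 and 4.76, and just outside 4.15, 4.09, 4.51 and 4.41. The median CpG ratio was 0.178 to 0.229 just inside and 0.198 to 0.238 just outside. The share found in the other replicate was 41.9%, 63.3%, 69.4% and 72.8% just inside and 39.5%, 64.6%, 73.6% and 72.8% just outside.

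The members with the highest G plus C content that were found in both replicates are named by that value alone. In RT112 they were a peak in an intron of GABRG3, a GABA receptor subunit gene, with 65.7% and 66%, and a distal peak 233 kb from a start site of SOD2, with 64.3% and 65.3%. In UM-UC-3 they were a peak 0.279 kb from a start site of MAD1L1, a mitotic checkpoint gene, with 66.7% in both replicates, and a peak 1.24 kb from a start site of CCDC57, with 66.3% and 65.7%. Their scores were 3.8 and 3.27 for GABRG3, 6.2 and 5.7 for SOD2, 2.41 and 2.47 for MAD1L1, and 2.41 and 2.3 for CCDC57. These 4 were chosen after their values were seen.

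Scores of GC-rich peaks were much like those of the other peaks at the median. The median was 4.09 in both RT112 libraries and 4.02 and 3.93 in UM-UC-3, against 3.8, 4.09, 3.88 and 3.85 in peaks below the limit. The highest GC-rich score was 46, 40.1, 42.2 and 47.9, and the highest of the other peaks, which were far more numerous, was 127, 115, 91.3 and 83.6. Scores of at least 10 were held by 10.4%, 10.1%, 9.35% and 8.87% of members and by 10.1%, 8.71%, 9.15% and 9.18% of the other peaks. Of the 1000 highest-scoring peaks per library, 39 and 37 were GC-rich in the RT112 lists as against 16 and 18 in those of UM-UC-3. Over the whole lists the shares were 2.72%, 2.82%, 2.32% and 2.31%. Set beside these, members were more frequent among the top 1000 peaks of RT112 and less frequent among those of UM-UC-3. Among peaks with scores of at least 10 the GC-rich shares were 2.8%, 3.25%, 2.37% and 2.24%. At that cut both RT112 libraries and UM-UC-3 replicate 1 lay above their whole lists, and only UM-UC-3 replicate 2 lay below. The contrast thus depended on the cut, and it was not tested.

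GC-rich peaks held fewer CpGs than GC-rich DNA at large. The ratio of observed to expected CpGs compares the CpG count of a window with the product of its C and G counts divided by its length. Its median in members was 0.208 and 0.182 in RT112 compared with 0.224 and 0.223 in UM-UC-3, against 0.304 in GC-rich tiles and 0.152 to 0.155 in the other peaks. Every library lay below the tiles. The difference from the tiles averaged -0.0946 over the libraries, and -0.0507 when the tiles were weighted to the G plus C content of the peaks. UM-UC-3 exceeded RT112 by 0.0287 (0.223 ± 0.000235 against 0.195 ± 0.0183, SD, n = 2; exact permutation p = 0.333).

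Windows with a ratio of at least 0.65 are called island-like here, after one of the usual limits for a CpG island. Of GC-rich tiles 13.8% were island-like. Of members 62 (2.37%) and 30 (1.77%) were in RT112, as were 122 (4.81%) and 137 (5.2%) in UM-UC-3. Both UM-UC-3 shares lay above both RT112 shares, with Wilson intervals of 1.85 to 3.02 and 1.24 to 2.51 in RT112 and of 4.05 to 5.72 and 4.41 to 6.11 in UM-UC-3. Island-like tiles within 1 kb of a protein-coding start site, the DNA that most resembles promoter CpG islands, numbered 45720, and members of the same kind numbered 4, 2, 11 and 10, or 0.875, 0.437, 2.41 and 2.19 per 10000 tiles. Island-like tiles farther from start sites had 14.7, 7.09, 28.1 and 32.2 peaks per 10000. GC-rich tiles that were neither island-like nor near a start site had 53.1, 34.4, 48.9 and 51. GC-rich tiles near a start site that were not island-like had 18.6, 13.4, 24.1 and 23.5. The first of these 4 classes was the lowest and the third the highest in all 4 libraries, while the order of the second and the fourth differed between the lines. The classes were not matched for G plus C content, with which density fell inside the GC-rich range, to 0.319 to 3.35 at 65 to 70%. Whether this order holds at equal G plus C content was not tested.

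**Figure D2:**
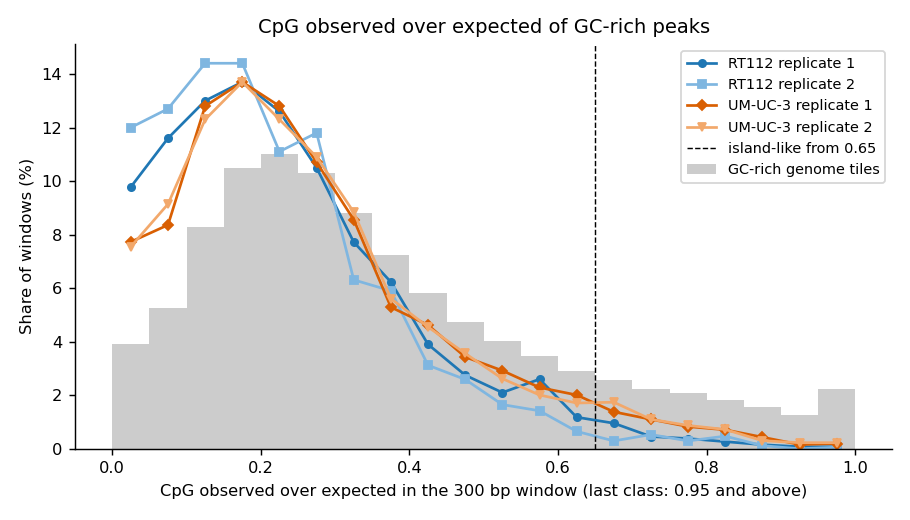
Share of windows (vertical axis, percent) by the CpG observed over expected ratio of the 300 bp window (horizontal axis), with grey bars for GC-rich genome tiles and one line per ChIP library for GC-rich peaks. The lines lie to the left of the bars, with medians of 0.182 to 0.224 against 0.304, and only 1.77 to 5.2% of members lie beyond the dashed line at 0.65.

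The 9-letter box TGTAATCCC, which occurs in the Alu consensus, was searched on both strands, and a match was not checked against a repeat annotation. It was found in 61.3%, 63.3%, 59% and 58.4% of island-like members and in 10.1%, 6.06%, 11.1% and 10.8% of the other members. Over all members the shares were 11.3%, 7.08%, 13.4% and 13.2%, against 6.59% of GC-rich tiles. The box went with island-like windows in GC-rich tiles too, where 25.2% of tiles with it were island-like against 13% of those without. Among members the values were 12.9%, 15.8%, 21.2% and 22.9% with the box against 1.03%, 0.698%, 2.28% and 2.49% without. Per 10000 tiles with the box there were 72.2, 29.4, 83 and 85.5 peaks, and per 10000 without it 40.2, 27.2, 38 and 39.6. The density with the box was thus higher in 3 libraries and close to that without it in RT112 replicate 2. These densities were not matched for G plus C content. In RT112 replicate 1, 29.8% of the members with the box were found in the other replicate, against 42.4% of those without it. In RT112 replicate 2 the values were 65.8% and 63.9%, and in UM-UC-3 they were 65.2% against 70.2% and 63% against 68.7%.

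The 7 island-like members within 1 kb of a start site found as such in both replicates are all named here, after their values were seen. In RT112 they lay at LYPD4, with scores of 17.7 and 8.93, and at TNFSF14, the cytokine LIGHT, with 5.68 and 4.09. In UM-UC-3 they lay at NBEA, the neurobeachin gene, with 13 and 17.8, at SLC19A3, a thiamine transporter, with 10.5 and 3.63, at NMNAT2, a NAD-synthesising enzyme of neurons, with 7.21 and 11, at PDCD5 with 6.99 and 8.47, and at ANKRD34C with 2.88 and 2.78. The NBEA window had 63.7% G plus C and a CpG ratio of 0.757.

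Most GC-rich peaks lay in introns and between genes, and promoters held a smaller share of them than of GC-rich tiles. Windows were given to the first of 7 classes they touched, starting with promoters, defined as 3 kb to either side of the start of any GENCODE transcript, non-coding ones included. Promoters held 22.7% and 23.7% of members in RT112 and 29.2% in both UM-UC-3 libraries, against 44.4% of GC-rich tiles and 15.4 to 15.5% of the other peaks. Introns held 39.3%, 37.9%, 36.3% and 36.3% of members against 27.6% of GC-rich tiles. Distal intergenic DNA held 31.1%, 31.2%, 27.4% and 28.2% against 19.1%. The promoter share was 5.98 percentage points higher in UM-UC-3 (29.2% ± 0.0208 against 23.2% ± 0.717, SD, n = 2; exact permutation p = 0.333) and the difference in the distal share was -3.38 points (exact permutation p = 0.333), both beyond the replicate spread. 3' UTRs held 2.33% and 2.59% in RT112 compared with 1.34% and 1.4% in UM-UC-3. The share in GC-rich tiles was 2.41%, close to RT112 and above both UM-UC-3 libraries.

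**Figure D3:**
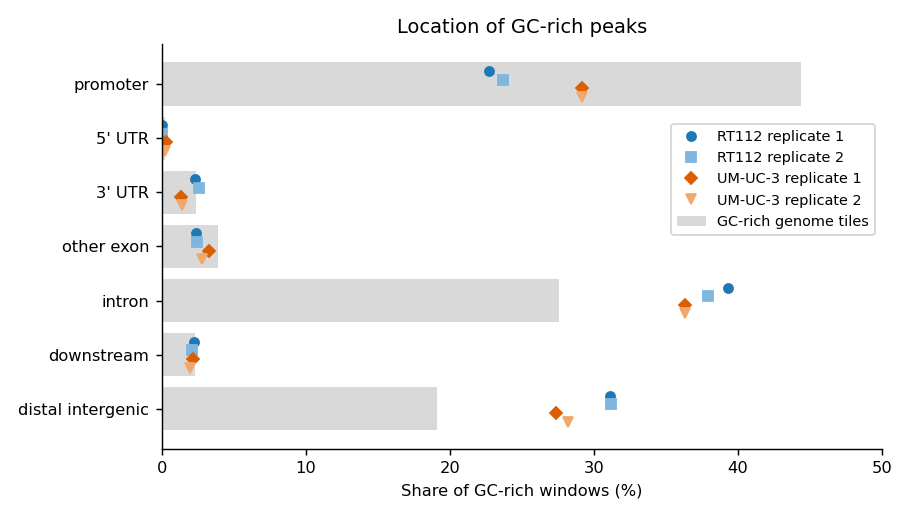
Share of GC-rich windows (horizontal axis, percent) in 7 location classes (vertical axis), with grey bars for GC-rich genome tiles and one symbol per ChIP library for GC-rich peaks. In promoters all 4 symbols lie at 22.7 to 29.2%, short of the bar at 44.4%, and in introns and distal intergenic DNA they lie beyond the bars.

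Within 1 kb of a protein-coding start site lay 154 and 110 members of RT112 (5.88% and 6.49%) and 206 and 200 of UM-UC-3 (8.13% and 7.58%). The same distance held 20.4% of GC-rich tiles and 2.59 to 2.72% of the other peaks. GC-rich peaks were therefore nearer to start sites than other peaks, yet farther than GC-rich DNA, and the median distance was 24.3, 25.1, 18.7 and 18.7 kb against 9.1 kb for GC-rich tiles. The mean share was 0.344 of that of the tiles, and it was 0.565 after the tiles were weighted to the G plus C content of the peaks. The same weighting changed the promoter ratio from 0.59 to 0.737 and the distal intergenic ratio from 1.54 to 1.28. UM-UC-3 exceeded RT112 by 1.67 percentage points (exact permutation p = 0.333).

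Of 20136 protein-coding genes, 69 (0.343%) had a GC-rich peak within 1 kb of a start site in both replicates of RT112 and 119 (0.591%) in both of UM-UC-3. None was in both sets, but sets of this size drawn at random from 20136 genes would also share few or none. The 10 best-ranked genes of RT112 were of many kinds. TNK1 led with scores of 35.7 and 29.7. FOXP3, the transcription factor of regulatory T cells, had 29.5 and 25.9 at 98 bp from its start site, and TAC3, which encodes neurokinin B, had 29.8 and 20.8. DNAH10, a dynein heavy chain of cilia, had 25.7 and 18.3, ACR, the sperm protease acrosin, 27.3 and 17.1, and AZGP1, a zinc-binding glycoprotein, 23.4 and 17.1. DCDC2C, XIRP1, GDPD2 and ATP6V1B1 followed, with scores of 9.52 to 16.1. UM-UC-3 had no peak at any of the 10, where only 5.27% and 5.96% of all GC-rich peaks of RT112 were found in UM-UC-3.

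In UM-UC-3 the corresponding genes were led by CD300LD. NBEA followed, and then FGGY, a sugar kinase gene, with 14 and 12.5, and ABHD16A, a phospholipase gene, with 14.2 and 11.5. TLE3, a transcriptional corepressor, had 9.72 and 14.4, NPY2R, a receptor of neuropeptide Y, 9.65 and 13.6 at 32 bp from the start site, and HNF4A, a nuclear receptor of liver and gut, 8.72 and 16.3. KNCN, MYO19 and NDST2 followed, with scores of 9.57 to 10.9. RT112 replicate 1 had a peak at 2 of the 10, ABHD16A with a score of 4.81 and MYO19 with 2.34, and RT112 replicate 2 had none. Of all GC-rich peaks of UM-UC-3, 7.02% and 6.52% were found in RT112. The CpG ratio at these 20 genes was 0.757 at NBEA and at most 0.46 at the other genes.

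Taking the gene body and 3 kb to either side, 532 genes (2.64%) had a GC-rich peak in both replicates of RT112 and 920 (4.57%) in both of UM-UC-3. The 108 in both sets were 20.3% of the RT112 genes and 11.7% of the UM-UC-3 genes. A gene counts here even where the replicates had different peaks, so long genes are counted more readily. The genes with the most GC-rich peaks were mostly long. PKNOX2, a homeobox gene of 268.7 kb, had 5 and 4 in RT112 compared with 3 and 3 in UM-UC-3, and AGAP1, of 637.8 kb, had 3, 4, 1 and 2. XPNPEP2, an aminopeptidase gene of only 30.59 kb on the X chromosome, had 5 and 4 in RT112 and none in UM-UC-3. DLGAP2, which encodes a synaptic scaffold protein and spans 969 kb, had 4 and 3 in RT112 compared with 9 and 6 in UM-UC-3. IQSEC1 had 4 in each UM-UC-3 library against 0 and 1 in RT112, and ANO1, a chloride channel gene, 4 and 3 against 0 and 1. CSMD2 and EPHB1 had 3 in each UM-UC-3 library, against 1 or 0 in RT112. DENND2A had 3 in each RT112 library against 0 and 2.

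The 9 gene lists were counted in the same way, in the order RT112 and then UM-UC-3. Of the plasminogen activator system, which holds the targets and receptors of PAI-1, 0 and 1 of 13 genes had a GC-rich peak in both replicates. The gene was LRP1, the endocytic receptor that clears complexes of PAI-1, with intronic peaks of 9.81 and 11.8. Of 12 genes for which the study had ChIP-PCR primers none had one in either line. Of the 57 genes that the study linked to PAI-1 partly from these libraries, 56 were matched. Among those with one were CACNA1C, a calcium channel gene of 727 kb, in both lines, and DRD2, the dopamine D2 receptor, in UM-UC-3. The scores of DRD2 there were 3.88 and 3.85. The CACNA1C peaks of the UM-UC-3 replicates were at different positions from each other and from those of RT112.

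Of genes mutated or amplified in bladder cancer, 2 and 4 of 48 had a GC-rich peak in both replicates, or 4.17% and 8.33%. In RT112 these were CREBBP (5.07 and 5.35) and EP300 (3.18 and 2.37), which encode related histone acetyltransferases. In UM-UC-3 they were ARID1A (6.03 and 11.8), a subunit of a chromatin remodeller, the histone methyltransferase genes KMT2C (3.27 and 3.93) and KMT2D (3.06 and 3.85), and RXRA (2.64 and 4.43), a retinoid receptor. The KMT2D peak lay 0.049 kb from a start site of a transcript.

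Homeobox and paired-box genes, many of which lie in GC-rich domains, had 2 and 3 of 80, or 2.5% and 3.75%. They were HOXA9 (7.23 and 8.2) and PAX8 (2.55 and 2.23) in RT112 and CUX2 (9.72 and 6.98), PAX8 (2.64 and 3.93) and LHX4 (2.31 and 2.13) in UM-UC-3. The PAX8 peaks of the lines, and of the UM-UC-3 replicates, were at different positions. Imprinted genes had 1 and 2 of the 30 matched: SNRPN (11.4 and 2.37) in RT112, and WT1 (5.34 and 6.29) and SLC22A18 (3.2 and 2.17) in UM-UC-3. Housekeeping genes had 0 and 1 of 40, which was NONO (9.9 and 11.3), and mucin genes 0 and 1 of 15, which was MUC16, with 2 peaks in each UM-UC-3 library. Clustered protocadherins had 0 and 21 of 49. The named ones, PCDHGA1, PCDHGA2, PCDHGA10, PCDHGA11 and PCDHGA12, shared 1 peak, with scores of 6.05 and 4.99, since the genes of the gamma cluster overlap, so that count does not stand for separate peaks. The background was 2.64% of all protein-coding genes for RT112 and 4.57% for UM-UC-3, and with counts of 0 to 4 genes the other lists were not read as different from it.

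Most GC-rich peaks of 3 libraries, and a minority of those of RT112 replicate 1, were found again in the other replicate. A peak was counted as found when it shared at least 1 bp with any peak of the other list. In RT112 replicate 1 this held for 1074 members (41%, Wilson interval 39.2 to 42.9) and in RT112 replicate 2 for 1086 (64%, 61.7 to 66.3). In UM-UC-3 it held for 1763 (69.5%, 67.7 to 71.3) and 1792 (68%, 66.1 to 69.7). The background over all peaks of each library was 38.2%, 61.3%, 74.9% and 71.7%. Against the other peaks, members differed by 2.89 and 2.81 percentage points in RT112 and by -5.44 and -3.87 points in UM-UC-3. Overlap is mutual, so the 2 values of a line rest largely on the same pairs of peaks. Lists of unequal length bound these shares, since RT112 replicate 1 had more peaks than replicate 2. The mean was 52.5% ± 16.3 (SD, n = 2) in RT112 and 68.8% ± 1.12 in UM-UC-3, which differ by less than the SD of RT112 (exact permutation p = 0.333). By G plus C content, the share in UM-UC-3 was 70.6% and 69% at 55 to 60% and 61.9% and 58.4% at 60 to 65%.

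GC-rich peaks were seldom found in the other cell line. The shares were 5.27% (138 members) and 5.96% (101) in RT112 as against 7.02% (178) and 6.52% (172) in UM-UC-3, and over all peaks they were 7.02%, 7.73%, 5.98% and 5.91%. UM-UC-3 members lay 1.16 percentage points above RT112 members (6.77% ± 0.353 against 5.61% ± 0.484, SD, n = 2; exact permutation p = 0.333). This direction turned without RT112 replicate 1, to -1.99, and at a limit of 60% G plus C, to -1.02. At 60 to 65% G plus C the shares were 1.41%, 3.61%, 1.38% and 1.72%. In all 4 libraries at once a peak was found at 41, 39, 51 and 50 members, where the peak of the other library did not have to be GC-rich. These were 1.57%, 2.3%, 2.01% and 1.9% of members, against 2.17%, 3.38%, 1.87% and 1.8% of all peaks. Members thus lay below all peaks in RT112 and near them in UM-UC-3.

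**Figure D4:**
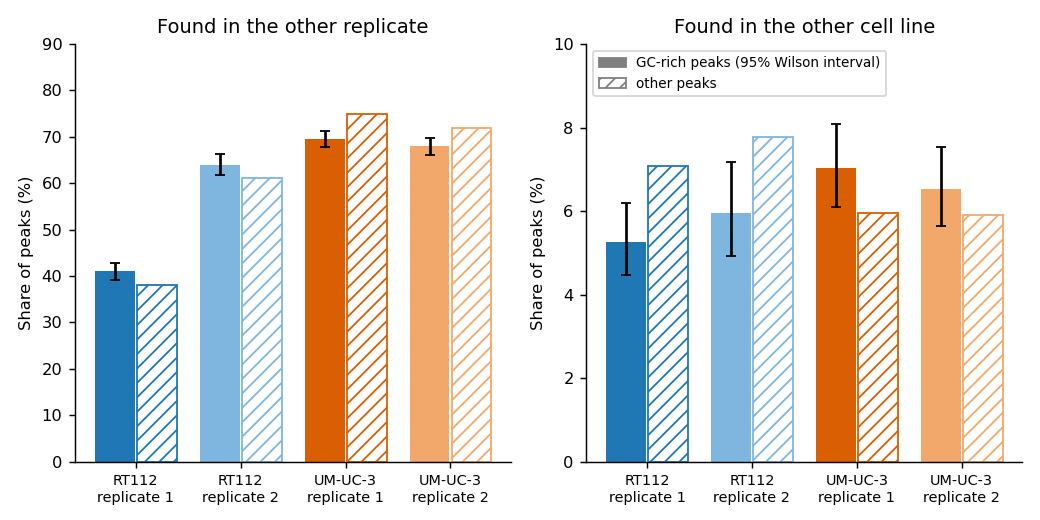
Share of peaks (vertical axes, percent) that overlap a peak of the other replicate (left) and of the other cell line (right), for GC-rich peaks (filled bars, with 95% Wilson intervals) and other peaks (hatched bars) of each ChIP library. On the left the filled bars run from 41 to 69.5%, and on the right all bars lie below 8%.

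Counted as merged loci, 4313 of 6853 (62.9%) had a GC-rich peak in 1 library only, 2462 (35.9%) in 2, 64 in 3 and 14 in all 4. Both RT112 libraries alone shared 883 loci and both UM-UC-3 libraries alone 1549. The 883 loci of RT112 had a median CpG ratio of 0.179, with 1.81% island-like and 24.2% in promoters. The 1549 of UM-UC-3 had 0.216, 4.52% and 28.7%. Loci in 1 library had 0.222, 4.01% and 25.6%.

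Some further sequence patterns were counted in the members and in GC-rich tiles, on both strands. The GC box GGGCGG, bound by Sp1-family factors, was in 11.5%, 10.4%, 12.8% and 13.2% of members against 26% of GC-rich tiles. A G-quadruplex pattern, 4 runs of at least 3 G separated by 1 to 7 bases, was in 9.36%, 10.8%, 10.2% and 10.5% against 21%. The CTCF core AGGGGGC was in 8.15 to 9.55% against 12.9%, and the ETS motif CCGGAAG in 1.47 to 2.16% against 3.22%. Members thus held fewer of these 4 patterns than GC-rich tiles in every library. The AP-1 motif TGACTCA was in 5.73%, 5.84%, 5.29% and 4.93% against 3.98%, and CCAAT in 25.4 to 28.8% against 21.4%. The E-box CACGTG was in 5.2 to 5.88% against 6.57%. As the members had less G plus C than the tiles on the whole, such shares describe the windows and were not matched for composition.

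GC-rich tiles gather at chromosome ends, and members did so less. Within 5 Mb of an end lay 25.8% of GC-rich tiles and 13%, 11.9%, 15.1% and 14.2% of members, against 5.07 to 5.82% of other peaks. Within 100 kb of an assembly gap of at least 1000 bases lay 2.29%, 1.95%, 2.29% and 2.54% of members against 3.65% of GC-rich tiles. Windows with at least 25% repeated 10-base words were 2.8 to 3.07% of members and 4.32% of GC-rich tiles.

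Between chromosomes, members per 10000 GC-rich tiles were lowest on chromosomes 9 and 22 in RT112, apart from Y, with means of 20.6 ± 7.1 and 22.7 ± 5.67 (SD, n = 2), and lowest on 22 in UM-UC-3, with 30.4 ± 1.89. They were highest on X in RT112 (74 and 41.4, mean 57.7 ± 23) and on chromosome 5 in UM-UC-3 (53.4 and 54.2, mean 53.8 ± 0.577). Chromosome 9 had the highest ratio of UM-UC-3 to RT112, 1.7, followed by chromosome 4 with 1.58, and X the lowest, 0.837, among chromosomes other than Y. The UM-UC-3 lists held more members on average (2586 against 2157 in RT112), which raises these ratios. On chromosome 9 both UM-UC-3 libraries (36.3 and 33.7) lay above both RT112 libraries (25.6 and 15.6), whereas on X the values of UM-UC-3 (48.6 and 48) lay between those of RT112. Chromosome Y had 1 member, in RT112 replicate 1.

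**Figure D5:**
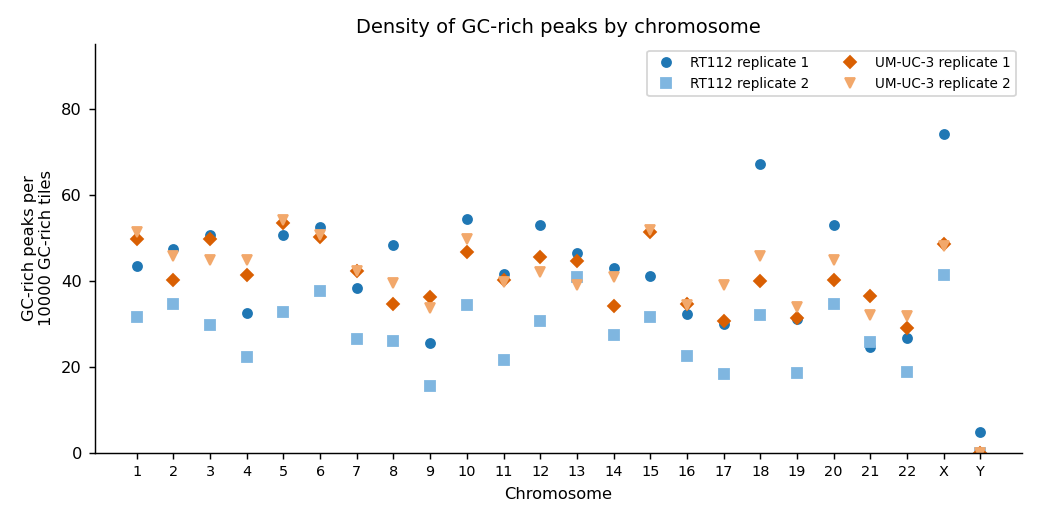
GC-rich peaks per 10000 GC-rich genome tiles (vertical axis) on each chromosome (horizontal axis), one symbol per ChIP library. RT112 replicate 2 lies lowest on every chromosome except 13, 21 and Y, RT112 replicate 1 reaches 74 on X, and the UM-UC-3 libraries run from 29 to 54.2 outside Y.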

How the data were processed

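PAI-1 ChIP-seq peak lists of 4 libraries (2 biological replicates each of RT112 and UM-UC-3) were analysed, with groups and replicate numbers taken from the labels. According to the methods, the authors mapped reads to hg19 with Bowtie 1.1.1 (default settings) and called peaks with MACS2 2.1.0.20140616 after Picard had taken out PCR duplicates. The labels also name FastQC and Trimmomatic. A false discovery limit is named in a figure legend for probe sets, without saying whether the peak lists were cut by it. Pooling and the use of the input in peak calling are not given in the sources used here. The deposited score of each peak was read as a −log10 p-value or q-value, and the lists do not say which. They hold no read counts, and library depth is therefore unknown. The sequencing and mapping yield of GC-rich DNA was not measured here.

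Peaks with identical intervals were counted once with the highest score, which removed 195, 78, 131 and 161 lines. Windows, GRCh37 tiles and GENCODE 44 genes lifted to GRCh37 were processed with pandas 2.3.3, numpy 2.4.6 and scipy 1.17.1 under Python 3.11.15, and matplotlib 3.10.9 drew the plots. Functions were tested on simulated sequences and intervals. Cell lines were compared by an exact two-sided permutation test over libraries, with Benjamini-Hochberg adjustment over 9 differences. The members, the gene lists and the tests were chosen with earlier results of these data known. Peaks were named by the mean rank of the score over libraries (5 per cell line and 5 over all 4 libraries), genes by the best-ranked peak within 1 kb of a start site (10 per cell line), by the number of peaks (5 per cell line) and by list (up to 5 per list and cell line). A result for 1 list is not reported here. Alternatives were a limit of 60% G plus C, G plus C of the whole peak, scores of at least 5, reciprocal overlap of 50%, tiles moved by 150 bp, windows without unknown bases, tiles weighted to the peaks, location of the midpoint, protein-coding genes only, a distance of 3 kb, each library left out, and pairing by replicate number.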

Additional observations from a re-analysis of the deposited data

Results flagged for a closer look

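The comparison of GC-rich with other peaks went in opposite directions in the cell lines. Relative to the other peaks, the share of GC-rich peaks found in the other replicate was higher in RT112. The difference averaged 2.85 percentage points in RT112 and -4.66 points in UM-UC-3, with the same sign in both libraries of each line. Overlap is mutual, so the 2 replicates of a line largely count the same pairs of peaks and are not separate evidence. The other peaks span all lower G plus C contents. In RT112 the share was 40.7% and 64.4% at 50 to 55%, 41.2% and 64.7% at 55 to 60%, and 29.3% and 56% below 35%. In UM-UC-3 it was 76.3% and 73.1%, 70.6% and 69%, and 69.1% and 66.5% in these classes. Within 10 equal classes of the score, GC-rich peaks had the higher share in 9 and 7 of 10 classes in RT112 and in 3 and 2 of 10 in UM-UC-3. The share found in the other cell line went the other way, at -1.81 points on average in RT112 and 0.844 in UM-UC-3, and GC-rich peaks had the higher share in 0 and 4 of 10 classes in RT112 and in 7 and 6 of 10 in UM-UC-3. Peaks with the same score were divided between these classes by chromosome and position. Some classes therefore held a single score, such as 2.76 in class 2 of RT112 replicate 1, and are not separate steps of the score. For the other line, UM-UC-3 had 7.36% and 7.51% at 50 to 55% and 7.62% and 7.04% at 55 to 60%. Below 35% it had 3.3% and 3.36%. RT112 had 7.31% and 7.92%, 5.5% and 6.08%, and 6.34% and 7.5% in these classes. The higher shares, of RT112 in the other replicate and of UM-UC-3 in the other line, were therefore not particular to GC-rich peaks. Whether the differences between GC-rich and other peaks themselves differ between the cell lines was not tested. The shares of GC-rich peaks were compared between the lines, with an exact permutation p of 0.333 for each, the smallest possible.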

How the results depend on the processing

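Of 104 values under alternatives, 3 changed direction. The 104 include values that could not change. Differences paired by replicate number equal the unpaired ones by construction, and no member window held unknown bases. The exact permutation test could not pass 0.05 with 2 libraries per line, so the differences between the lines were compared by direction only. Of the ratios and differences relative to genome tiles, 29 values moved by more than the replicate SD. The difference in the share of GC-rich peaks was -0.162 percentage points with the whole peak. The difference between the lines in the share of GC-rich peaks turned to 0.0725 percentage points at 60% G plus C, and the difference in the share found in the other cell line to -1.02 there and to -1.99 without RT112 replicate 1 (range over the libraries left out, -1.99 to 2.58).

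The share divided by the genome share (0.391) was 0.0671 at 60% G plus C, 0.405 with the whole peak and 0.38 at scores of at least 5, and 0.377 to 0.403 with a library left out. The CpG ratio relative to the tiles (-0.0946) was -0.135 at 60% and -0.0709 with the whole peak, and -0.0507 with weighted tiles. The promoter ratio (0.59) was 0.695 at 60%, 0.57 at scores of at least 5, 0.737 with weighted tiles, 0.483 with protein-coding genes only and 0.567 to 0.616 with a library left out. The distal intergenic ratio (1.54) was 1.49 with the whole peak, 1.58 at scores of at least 5, 1.28 with weighted tiles, 1.39 with protein-coding genes only and 1.51 to 1.58 with a library left out. The start-site ratio (0.344) was 0.438 at 60%, 0.565 with weighted tiles and 0.479 within 3 kb. The causes of these changes were not tested. The share found in the other replicate has no value when a library is left out.

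Pairing by replicate number left each difference as it was (-0.45 points for the share of GC-rich peaks), with an exact sign-flip p of 0.5, the smallest possible. Across 6853 loci the deviations of same-numbered libraries had a correlation of 0.00167. Only 6, 10, 10 and 4 loci, by pair of libraries, had a GC-rich peak in exactly 1 library of each line. A correlation near 0 would therefore arise with or without pairing, and it cannot decide whether the numbers pair the samples.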
